A study of Mus musculus with 4 samples.

Results

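The B cell receptor (BCR) signals through a pair of attached chains, and its threshold is set by co-receptors that add to the signal and by inhibitory receptors that dampen it. The genes described here were chosen by name and are present in both mRNA matrices, 9 of the 32285 genes measured. They are Cd79a and Cd79b, the signalling chains of the receptor, Cr2 and Cd81, members of the co-receptor complex, Cd22, Siglecg and Cd72, inhibitory receptors of the B cell surface, Fcgr2b, the inhibitory Fc receptor for IgG, and Fcmr, the Fc receptor for IgM. Each was followed across B-cell states, between the cells of the 2 sorts, and between recipient groups.

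Single-cell RNA sequencing was done on splenic MD4 B cells, whose transgenic BCR recognises hen egg lysozyme (HEL), on day 8 after CD45.1+ wild-type C57BL/6 recipients had been given a cell transfer and SRBC-HEL, sheep red blood cells coupled to HEL. All 6 recipients received MD4 B cells that were CD45.1+ and Dock8 wt/wt without the BCL2 transgene, mixed in 3 of them (wild-type group) with CD45.2+ Dock8 wt/wt BCL2.Tg MD4 B cells and in the other 3 (DOCK8-deficient group) with CD45.2+ Dock8 cpm/cpm BCL2.Tg MD4 B cells. The cpm allele is a chemically induced mutation that removes DOCK8, a guanine exchange factor for the actin regulator CDC42, and the BCL2 transgene is expressed in B cells only and protects them from apoptosis. HEL-binding CD95+ cells of all recipients were marked with a hashtag per spleen, pooled and sorted into CD45.1+ and CD45.2+ cells, each of which gave 1 mRNA and 1 hashtag library. Animals were 8 to 12 weeks old. Because the CD45.2+ and CD45.1+ cells differ in library, CD45 allele and BCL2 transgene at once, these cannot be told apart, and CD45.1+ B cells of the host that bind HEL would be counted with the transferred CD45.1+ cells.

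Antigen bound by the BCR leads to phosphorylation of the CD79A and CD79B tails, while complement-coated antigen bound by CR2 (CD21) draws in the co-receptor complex with CD81 and lowers the threshold. CD22 and SIGLECG bind sialic acids and, like CD72 and FCGR2B, carry cytoplasmic motifs that recruit phosphatases such as SHP-1 or SHIP-1. In a germinal center (GC), light zone (LZ) cells test their receptor on antigen held by follicular dendritic cells, dark zone (DZ) cells divide and mutate it, and plasma cells and plasmablasts (PC/PB) secrete antibody and lower much of the B cell surface program.

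The 6488 CD45.2+ and 3204 CD45.1+ cells kept had medians of 6536 and 5274 UMIs per cell. Clusters were built without the 9 genes, and their names come from the study's marker lists, also without the 9 genes. They fall into 3366 early GC, activated or memory-like cells (E/A/M), 1891 LZ, 1957 DZ and 2159 PC/PB cells, beside 210 cells of a low-RNA cluster and 109 T cells. A total of 6 kept barcodes occurred in both sorts. Of 14439 CD45.2+ barcodes that passed the cell filters and had hashtag counts, these 6488 were assigned to 1 mouse. Under this hashtag rule the CD45.2+ cells of the DOCK8-deficient group numbered 44 to 101 per mouse, against 1672 to 2607 in the wild-type group. Other rules kept more, as given at the end. Of the cells with a hashtag of the DOCK8-deficient group 56.8% to 58.4% held a Y-linked UMI, against 3.30% to 3.77% in the wild-type group, and 8.77% to 25% against 82.1% to 86.2% were high in Xist, so sex and genotype cannot be told apart. A note in the supplement of the study gives the sexes of the 2 genotypes the other way round. Which of the labels and the note is right was not settled, and some cells with a hashtag of the DOCK8-deficient group may be wild-type cells, so every direction between these groups below rests on the hashtag labels as given. Dock8 mRNA itself was 121, 123 and 114 CPM in CD45.2+ E/A/M cells of the wild-type mice and 114, 151 and 140 CPM in those of the DOCK8-deficient mice (adjusted p = 0.999, edgeR), so the mRNA level does not check the label. B cell markers were present in all classes, and at least 4 of the 5 measured follicular dendritic cell markers were at 0 in every sum over a mouse and class.

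The 9 genes lie on 4 chromosomes of GRCm38. Fcmr (ENSMUSG00000042474, chr1:130865669-130880791, plus strand), Fcgr2b (ENSMUSG00000026656, chr1:170958617-170976547, minus) and Cr2 (ENSMUSG00000026616, chr1:195136811-195176716, minus) share chromosome 1 with Ptprc (chr1:138062861-138175708, minus), the gene of the CD45 allele by which the cells were sorted. Cd72 (ENSMUSG00000028459) is at chr4:43446462-43454628 (minus). Chromosome 7 holds Cd79a (ENSMUSG00000003379, chr7:24897381-24902197, plus), Cd22 (ENSMUSG00000030577, chr7:30865402-30880342, minus), Siglecg (ENSMUSG00000030468, chr7:43408204-43418358, plus) and Cd81 (ENSMUSG00000037706, chr7:143052739-143067934, plus), and Cd79b (ENSMUSG00000040592) is at chr11:106311341-106314762 (minus).

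The sequence before the start of 3 members is shown, since Cr2 and Cd72 were high in LZ cells and near 0 in CD45.1+ PC/PB cells while Cd81 kept its level. The sequences are the bases upstream of each gene in RefSeq (GRCm38.p6), on the gene's own strand from 5′ to 3′, for Cr2 chr1:195176720-195176969, for Cd72 chr4:43454629-43454876 and for Cd81 chr7:143052500-143052738. Capitals mark the ETS core GGAAG or its reverse CTTCC, and in Cd72 the purine box GAGGAAGT in reverse (ACTTCCTC), the kind of site bound by PU.1 and SPIB.
Cr2: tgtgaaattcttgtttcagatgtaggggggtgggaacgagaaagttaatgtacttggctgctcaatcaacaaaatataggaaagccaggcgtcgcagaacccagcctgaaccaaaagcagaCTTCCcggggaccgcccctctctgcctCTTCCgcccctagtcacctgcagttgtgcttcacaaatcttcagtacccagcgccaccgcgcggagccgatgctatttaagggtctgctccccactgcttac
Cd72: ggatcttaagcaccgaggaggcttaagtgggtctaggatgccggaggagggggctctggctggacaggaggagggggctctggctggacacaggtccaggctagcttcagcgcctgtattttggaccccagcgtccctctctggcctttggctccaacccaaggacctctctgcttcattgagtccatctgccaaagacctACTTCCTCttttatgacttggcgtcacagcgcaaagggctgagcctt
Cd81: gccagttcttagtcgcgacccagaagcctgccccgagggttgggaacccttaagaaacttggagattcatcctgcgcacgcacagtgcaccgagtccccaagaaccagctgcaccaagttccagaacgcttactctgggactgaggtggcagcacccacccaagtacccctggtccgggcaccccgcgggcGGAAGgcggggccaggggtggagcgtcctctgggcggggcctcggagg
The printed stretches stop where the annotated gene above begins, so they hold 250 bases for Cr2, 248 for Cd72 and 239 for Cd81. Both strands of 250 bases before the RefSeq start were searched in 8 of the 9 genes with a RefSeq promoter entry. The purine box was found in Cd72 only, 49 bases before the RefSeq start, and in 2.44% of 32851 promoters of that length. The ETS core, which every purine box contains, was found in 7 of the 8 members and in 64.1% of all promoters. The octamer ATGCAAAT, present in 1.60% of all promoters, was in none of the 8. These are matches of letters, not measured binding.

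Across B-cell states, the members fell into groups. In CD45.1+ cells Cr2, Cd72, Fcmr and Siglecg were highest in LZ cells in 6 of 6 mice, Cd79a was highest in E/A/M cells in 6 of 6, and Cd81 was highest in PC/PB cells in 5 of 6. Of the 9 members, 8 were higher in LZ than in DZ cells in every mouse and none was lower in every mouse, where 15.3% of 7275 genes with a mean of at least 10 CPM were higher and 24.3% lower in every mouse. The median LZ over DZ log2 ratio was 0.74 over the members and -0.03 over all genes. In the other pairs of classes 8 members were higher in LZ than in PC/PB cells in every CD45.1+ mouse and none was lower, where 58.9% and 12.7% of genes were. Of the 9, 4 were higher and 1, Cd79a, lower in LZ than in E/A/M cells (29% and 9.54% of genes), and 4 were higher and 2, Cr2 and Fcmr, lower in E/A/M than in DZ cells (15.5% and 40.5% of genes). In CD45.2+ cells LZ exceeded DZ in every mouse in 6 members and was below it in 1, Cd81 (14.8% and 22.6% of genes), while LZ exceeded E/A/M in 1 member and was below it in 4 (17.5% and 9.66%). LZ exceeded PC/PB cells in 7 members and was below in 1 (71.6% and 14.2%), and E/A/M exceeded DZ cells in 5 and was below in 1 (16.9% and 26.3%). These CD45.2+ counts take both recipient groups together, except those with PC/PB cells, where only wild-type mice had enough cells. The clusters were formed on other genes of the same cells, so these levels are a description and carry no test. All levels are CPM, the UMIs of a gene summed over the cells of a mouse and class and scaled by their total UMIs, and in such sums fewer cells of a type and less RNA per cell cannot be told apart.

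**Figure D1:**
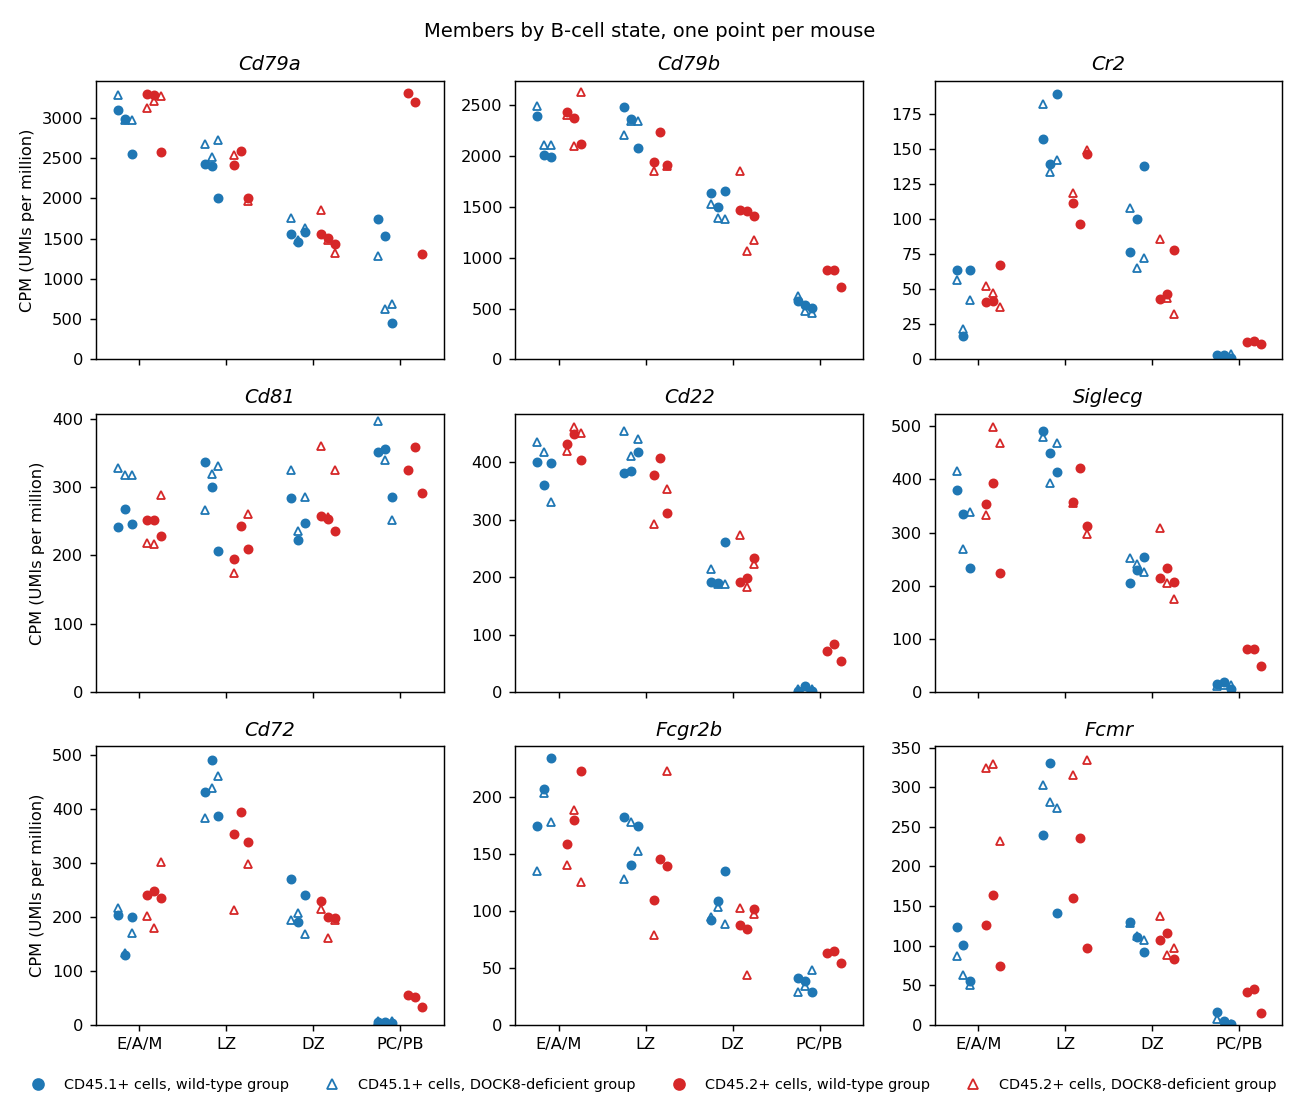
Level of each member (y axis, CPM, from 0) in the 4 classes of cells (x axis), with 1 point per mouse with at least 10 cells in the class. Blue points are CD45.1+ and red points CD45.2+ cells, filled circles the wild-type group and open triangles the DOCK8-deficient group. In CD45.1+ cells Cr2, Cd72, Fcmr and Siglecg peak in LZ cells, Cd79a peaks in E/A/M cells, and Cd81 stays level into PC/PB cells.

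Of the receptor's signalling chains, Cd79a encodes Ig-alpha. In CD45.1+ cells it was 1457, 1576 and 1760 CPM (lowest, median and highest of 6 mice) in DZ cells, 2000, 2474 and 2721 CPM in LZ cells and 2552, 2984 and 3288 CPM in E/A/M cells. In PC/PB cells it was 447, 984 and 1749 CPM. The DZ range lay below the LZ and E/A/M ranges in full, while PC/PB values of single mice were spread widely and overlapped the DZ range. In CD45.2+ PC/PB cells of the 3 wild-type mice Cd79a was 3315, 3200 and 1312 CPM, so that it reached the E/A/M level in mice 1 and 2 and not in mouse 3. With immunoglobulin UMIs left out of the total, mean Cd79a in CD45.1+ cells was 1661 CPM in PC/PB and 1613 CPM in DZ cells. In CD45.2+ cells it was then 4093 CPM in PC/PB (3 mice) and 3231 CPM in E/A/M cells (6 mice).

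Cd79b encodes Ig-beta, its obligate partner. It was 1385, 1514 and 1656 CPM in CD45.1+ DZ cells, 2081, 2348 and 2486 CPM in LZ cells, 1996, 2110 and 2493 CPM in E/A/M cells and 457, 516 and 626 CPM in PC/PB cells. LZ exceeded DZ 1.52-fold (ratio of means), and the LZ and E/A/M ranges overlapped. Unlike Cd79a, Cd79b in PC/PB cells stayed below the DZ range in all 6 mice.

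The Cd79a to Cd79b ratio of UMIs therefore moved with state. It was 1.05 ± 0.10 in DZ and 1.07 ± 0.10 in LZ cells of the CD45.1+ sort, 1.37 ± 0.08 in E/A/M cells and 1.95 ± 0.87 in PC/PB cells (SD, n = 6), with PC/PB values from 0.89 to 3.06. In the CD45.2+ sort it was 3.08 ± 1.08 in PC/PB cells (SD, n = 3) and reached 4.72 ± 1.23 in the PC 1 cluster. It fell below 1 in the cycling PC/PB cluster of CD45.1+ cells, at 0.66 ± 0.15 (SD, n = 5), and in the DZ 1 cluster, at 0.93 ± 0.08 (SD, n = 6). In the other sort the cycling PC/PB cluster was at 1.16 ± 0.58 (SD, n = 3), with mice from 0.60 to 1.75. The ratio is not corrected for capture of the transcripts, and only its change between states is described.

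Among the co-receptor genes, Cr2 had the sharpest restriction. It encodes complement receptors CD21 and CD35, which arise by splicing and are not separated by UMI counts. In CD45.1+ cells it was 133, 150 and 189 CPM in LZ, 65.4, 88.4 and 138 CPM in DZ, 16.3, 49.7 and 64.0 CPM in E/A/M and 0, 2.09 and 4.13 CPM in PC/PB cells. E/A/M cells lay below DZ cells in every mouse, and LZ cells lay above DZ cells in every mouse although their ranges overlapped slightly. Within E/A/M, Cr2 was almost absent from the early GC 2 cluster, at 7.82 ± 6.92 CPM against 67.8 ± 27.8 CPM in early GC 1 (SD, n = 6 and 5).

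Cd81, a tetraspanin of the co-receptor complex, was the flattest member. It was 222, 266 and 325 CPM in DZ, 207, 309 and 337 CPM in LZ, 242, 293 and 327 CPM in E/A/M and 252, 345 and 396 CPM in PC/PB cells of the CD45.1+ sort, and these ranges overlapped throughout. In CD45.2+ cells LZ values were below DZ values in 5 of 5 mice, at 0.756 of the DZ mean, and PC/PB cells were above LZ cells in 3 of 3 mice. Among DZ clusters the lowest level was in DZ 3, at 155 ± 28.3 CPM (SD, n = 5) in CD45.1+ cells. With immunoglobulin UMIs, which fill PC/PB libraries, left out of the total, Cd81 in CD45.1+ PC/PB cells was 519 CPM on average instead of 330 CPM. The other classes changed little, to 301 CPM in LZ, 295 CPM in E/A/M and 273 CPM in DZ cells, so Cd81 was then highest in PC/PB cells.

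Of the inhibitory receptors, Cd22 was 381, 414 and 455 CPM in CD45.1+ LZ cells, 330, 399 and 436 CPM in E/A/M cells and 188, 191 and 261 CPM in DZ cells. In PC/PB cells it was 1.27, 3.26 and 10.6 CPM. LZ and E/A/M cells both lay above every DZ value, close to 2-fold by the means (2.02 and 1.90), and did not separate from each other. As for Cd81, the DZ 3 cluster held the least Cd22 among DZ clusters, at 123 ± 29.3 CPM (SD, n = 5) against 225 ± 40.8 CPM in DZ 2 (SD, n = 6).

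Siglecg, the other sialic-acid-binding member, was 393, 459 and 492 CPM in LZ, 233, 337 and 417 CPM in E/A/M, 205, 235 and 254 CPM in DZ and 6.24, 13.9 and 19.6 CPM in PC/PB cells of the CD45.1+ sort. There LZ cells were above E/A/M cells in every mouse, and all LZ values were above all DZ values. In CD45.2+ cells of both groups together, LZ exceeded E/A/M in 4 of 5 mice, at 0.983 of its mean. The LZ and DZ ranges overlapped there. In the wild-type CD45.2+ mice alone, LZ was the highest class in 3 of 3. It was at 357, 422 and 312 CPM, against 354, 393 and 224 CPM in E/A/M cells. Over 22 clusters and sorts, Siglecg and Cd22 had the most similar levels of all pairs of members (Pearson r of log2(CPM + 10) = 0.978), a description over points that share 2 libraries.

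Cd72, whose ligands include semaphorin CD100, separated LZ cells from both other B-cell classes in the CD45.1+ sort. In CD45.2+ cells of both groups together, it was higher in LZ than in DZ cells, and than in E/A/M cells, in 4 of 5 mice each. The ranges overlapped there. In the wild-type CD45.2+ mice alone, Cd72 was highest in LZ cells in 3 of 3. It was 384, 436 and 492 CPM in LZ, 169, 201 and 271 CPM in DZ, 130, 185 and 217 CPM in E/A/M and 2.54, 4.82 and 7.12 CPM in PC/PB cells of the CD45.1+ sort. Every LZ value lay above every DZ and E/A/M value, while DZ and E/A/M overlapped. Early GC 2 cells again stood low, at 43.0 ± 19.6 CPM against 284 ± 40.5 CPM in early GC 1 (SD, n = 6 and 5).

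Fcgr2b, which dampens the BCR when IgG-bound antigen links both, did not follow this order. It was 135, 191 and 234 CPM in E/A/M, 128, 164 and 182 CPM in LZ, 88.5, 99.1 and 135 CPM in DZ and 28.5, 36.4 and 48.2 CPM in PC/PB cells of the CD45.1+ sort. E/A/M was the highest class in 5 of 6 CD45.1+ mice and in 3 of 3 wild-type CD45.2+ mice. The LZ 1 cluster was lower than the LZ 2 cluster in CD45.2+ cells, at 85.3 ± 30.5 against 192 ± 79.9 CPM (SD, n = 4), with an SD of LZ 2 that approaches the gap.

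Fcmr, also called TOSO or FAIM3, binds secreted and membrane IgM. It was 142, 278 and 330 CPM in LZ, 92.1, 111 and 129 CPM in DZ, 50.7, 74.5 and 123 CPM in E/A/M and 0.891, 3.91 and 16.0 CPM in PC/PB cells of the CD45.1+ sort. LZ cells were highest in every mouse, and E/A/M cells were below DZ cells in every mouse. In CD45.2+ cells of both groups together, E/A/M was above DZ in 5 of 6 mice, at means of 208 and 105 CPM. In wild-type mice 1 to 3 alone, E/A/M was 126, 164 and 74.3 CPM and DZ 107, 115 and 83.2 CPM, so mouse 3 went the other way. The mean of 208 CPM thus includes the higher E/A/M values of the DOCK8-deficient mice, given below. The study named Fcmr as enriched in a LZ cluster to which DOCK8-deficient cells contributed more, so its LZ level is not an independent finding. The E/A/M average of CD45.1+ cells hides a split among its clusters, since Fcmr was 308 ± 84.1 CPM in early GC 1 (SD, n = 5), 61.7 ± 14.0 CPM in activated/memory-like and 10.4 ± 9.41 CPM in early GC 2 cells (SD, n = 6). Early GC 1 is the cluster led by genes of naive-like cells such as Ighd and Ccr7.

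The genes outside the set whose levels over the 22 clusters and sorts were most like those of a member were found by Pearson r of log2(CPM + 10) among 2624 genes. They were Bcl11a (r = 0.993) and Scd1 (0.99) for Cd22, Cd37 and Ciita (both 0.991) for Siglecg, and Samd9l and Nedd9 (both 0.978) for Cd79b. For Fcmr they were Pxk (0.969) and Foxo1 (0.922), for Cd72 Tespa1 (0.957) and Fcrl1 (0.949), and for Fcgr2b Tbc1d10c (0.950) and Stk10 (0.942). Cr2 was closest to the member Cd72 (0.939) and to Tespa1 (0.936), Cd79a to H2-Ab1 (0.924) and BE692007 (0.908), and Cd81, with no close match, to Lax1 (0.710) and Arid3a (0.707).

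In the 210 cells of the low-RNA cluster, Cd22 stood out. It was 1044, 1085 and 1066 CPM in the 3 wild-type CD45.2+ mice, above every LZ value, and Siglecg was 625 ± 73.3 CPM and Fcgr2b 295 ± 32.7 CPM (SD, n = 3). The study's marker list for these cells also named Cd22 and Siglecg, so their level there is not an independent finding. The cluster's CD45.2+ cells had a median of 1826 UMIs and 5.68% mitochondrial UMIs, against 5287 UMIs and 2.21% in LZ cells of that sort, and the part of RNA quality in these levels was not tested.

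The CD45.2+ cells were then compared with the CD45.1+ cells of the same 3 wild-type mice, all of them Dock8 wt/wt, to ask how BCL2.Tg cells and their partners differed in these receptors. The members called were not the same in each class, a difference between classes that was itself not tested. In PC/PB cells 8 of 9 members were higher in the CD45.2+ sort, in LZ cells Cr2 and Fcmr were lower, in DZ cells Cr2 was lower, and in E/A/M cells no member passed the test. Over all genes tested, 23.3% were called in PC/PB, 8.42% in LZ, 5.3% in DZ and 4.62% in E/A/M cells (edgeR's quasi-likelihood test with the mouse as block, Benjamini-Hochberg adjusted p below 0.05). The median log2 fold change of members and of all genes was 2.35 and 0.03 in PC/PB, -0.23 and 0.00 in LZ, -0.11 and 0.00 in DZ and -0.01 and 0.01 in E/A/M cells.

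**Figure D2:**
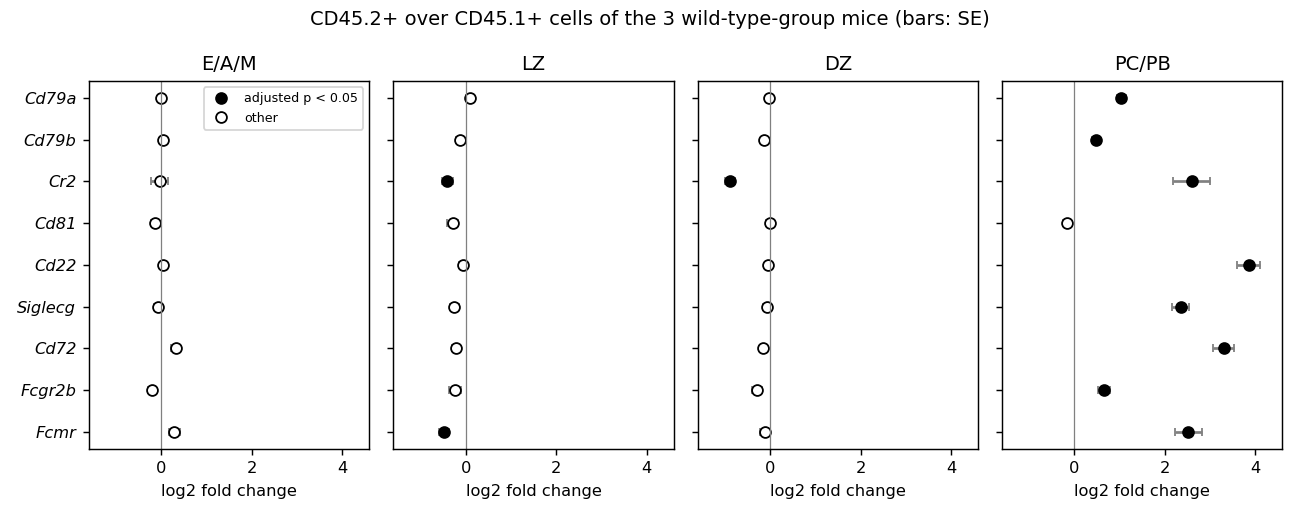
Log2 fold change of each member (x axis) in CD45.2+ over CD45.1+ cells of the 3 wild-type mice, 1 panel per class, with bars of 1 SE. Filled points have an adjusted p below 0.05. The filled points lie far to the right in PC/PB cells, from 0.48 to 3.85, and the filled points of LZ and DZ cells lie to the left of 0.

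In DZ cells Cr2 was 43.0, 46.2 and 77.9 CPM in CD45.2+ cells of wild-type mice 1 to 3 and 76.7, 100 and 138 CPM in their CD45.1+ cells. It fell by 0.88 on the log2 scale (SE 0.11, adjusted p = 1.4e-06, edgeR) and was lower in 3 of 3 mice. Both of the DZ clusters that could be tested alone showed it, with -0.64 in DZ 1 (adjusted p = 0.028) and -1.26 in DZ 2 (adjusted p = 3.0e-08, both edgeR). Ptpn6, which encodes the phosphatase SHP-1, also fell in DZ cells by 0.32 (adjusted p = 0.0014).

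In LZ cells Cr2 was 111, 96.3 and 146 CPM in CD45.2+ and 157, 139 and 189 CPM in CD45.1+ cells of the same mice, a difference of -0.41 on the log2 scale (SE 0.13, adjusted p = 0.030, edgeR). Fcmr was 160, 236 and 97.4 CPM in CD45.2+ and 240, 330 and 142 CPM in CD45.1+ cells, a change of -0.48 (SE 0.11, adjusted p = 0.0024, edgeR). Both were lower in 3 of 3 mice, but DESeq2 called neither (adjusted p = 0.41 and 0.11), and without wild-type mouse 2 neither passed (edgeR adjusted p = 0.29 and 0.073), nor did Cr2 without wild-type mouse 1 (0.068). The cluster mix of LZ cells differed between sorts, with 60.0%, 23.2% and 44.8% LZ 1 cells in CD45.2+ and 8.57%, 2.44% and 12.4% in CD45.1+ cells of the 3 mice. Within LZ 2 alone, Cr2 was still lower (-0.55, adjusted p = 0.012) and Fcmr was not called (-0.27, adjusted p = 0.23, edgeR). Naive or memory landmarks rose in CD45.2+ LZ cells in 5 of 6 genes, among them Ccr7 (2.58) and Ighd (2.11), and GC landmarks fell in 5 of 6, among them Efnb1 (-1.17), Mef2b (-1.11) and S1pr2 (-0.95).

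In E/A/M cells 0 of 9 members passed, with 3 at an unadjusted p below 0.05 and none called by DESeq2. Cd72 came closest, at 240, 248 and 236 CPM in CD45.2+ and 203, 130 and 199 CPM in CD45.1+ cells (log2 fold change 0.31, SE 0.10, adjusted p = 0.082). Within single clusters, opposite changes were present. Fcmr was lower in CD45.2+ early GC 1 cells (-0.71, SE 0.18, adjusted p = 0.0078) and higher in CD45.2+ early GC 2 cells (2.70, SE 0.40, adjusted p = 5.1e-09), where Cd72 was also higher (1.64, SE 0.29, adjusted p = 2.8e-06, all edgeR). In early GC 2 Fcmr was 95.4, 103 and 70.8 CPM in CD45.2+ and 15.8, 8.57 and 14.0 CPM in CD45.1+ cells. T cells of the CD45.2+ library held 52.5 CPM of Fcmr (95% Poisson interval 27.9 to 89.7) and 129 CPM of Cd72, against a mean of 121 CPM of Cd72 in CD45.2+ early GC 2 cells, and the part of free RNA in these differences was not tested. Markers of myeloid cells summed to 321 to 354 CPM in CD45.2+ and 401 to 929 CPM in CD45.1+ E/A/M cells of these mice, with 4 of 7 tested markers lower in CD45.2+ cells, Lyz2 by 6.17 on the log2 scale, and their part in these results was not tested.

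In PC/PB cells the change was wide. Cd22 was 71.0, 83.5 and 54.1 CPM in CD45.2+ cells of wild-type mice 1 to 3 and 1.45, 10.6 and 1.78 CPM in their CD45.1+ cells (log2 fold change 3.85, SE 0.26, adjusted p = 7.1e-10, edgeR). Cd72 was 56.1, 51.1 and 33.7 CPM against 4.36, 5.29 and 2.97 CPM (3.30, SE 0.23, adjusted p = 7.6e-10), and Siglecg 81.9, 80.3 and 49.1 CPM against 14.5, 19.6 and 6.24 CPM (2.35, SE 0.19, adjusted p = 4.2e-09). These 3 inhibitory receptors were higher in 3 of 3 mice, with no overlap between the sorts. Cr2 (2.59, SE 0.40, adjusted p = 5.0e-05) and Fcmr (2.52, SE 0.30, adjusted p = 1.8e-06) rose likewise.

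The chains of the receptor and Fcgr2b rose less. Cd79a rose by 1.04 on the log2 scale (SE 0.10, adjusted p = 7.7e-08), from 1749, 1532 and 447 CPM in CD45.1+ to 3315, 3200 and 1312 CPM in CD45.2+ cells. Cd79b rose by 0.48 (SE 0.08, adjusted p = 0.00018), from 572, 530 and 501 CPM to 878, 882 and 715 CPM, and Fcgr2b by 0.65 (SE 0.13, adjusted p = 0.00096), from 40.7, 38.5 and 28.8 CPM to 62.6, 64.7 and 54.1 CPM. The call of Fcgr2b was lost with DESeq2 (adjusted p = 0.075) and within the cycling PC/PB cluster (edgeR, adjusted p = 0.43). Within that cluster the call of Cd79b was lost too (0.45, edgeR, adjusted p = 0.11). Cd81 alone did not pass (-0.16, SE 0.09, adjusted p = 0.21), at 325, 359 and 292 CPM against 351, 356 and 286 CPM. PC 1 cells made up 17.3%, 17.4% and 11.1% of CD45.2+ and 7.79%, 5.84% and 0.33% of CD45.1+ PC/PB cells in these mice. Within the PC 2 cluster the same 8 members were called, where 20.5% of genes were.

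The PC/PB cells of the CD45.2+ sort differed in other B cell genes too. All 6 B cell defining markers were higher, by a median of 1.97 on the log2 scale, among them the transcription factors Pax5 (4.46) and Ebf1 (2.21) and the surface gene Ms4a1 (2.31). All 6 GC landmarks and all 6 naive or memory landmarks were higher as well, while 3 of 6 plasma cell landmarks fell, Mzb1 by 0.51, Sdc1 by 0.50 and Xbp1 by 0.35. Further along the pathway, 17 of 26 genes of proximal activating signalling were higher and none lower, among them the kinase genes Blk (2.63) and Prkcb (2.5) and the adaptor gene Bank1 (1.83). Of the inhibitory signalling genes 8 of 17 tested were higher and none lower, with Ptpn6 (1.81), Grap (1.60) and Dok3 (1.21) the foremost. Over both sorts together, PC/PB cells lay below T cells in Pax5 (25.1 against 56.0 CPM), Ebf1 (107 against 158 CPM), Ms4a1 (210 against 336 CPM), Blk (37.3 against 61.1 CPM), Prkcb (22.8 against 94.2 CPM), Bank1 (45.0 against 61.1 CPM), Ptpn6 (53.1 against 198 CPM) and Grap (41.9 against 158 CPM). Dok3 was 77.4 CPM in PC/PB and 66.2 CPM in T cells. T cells make some of these genes themselves, and the part of free RNA in the differences between the sorts was not tested. Of the receptor's other membrane partners 14 of 21 were higher and 4 lower, and of ligands and ligand-making enzymes 3 of 11 were higher and 2 lower.

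Markers of T cells summed to 8.64 to 17.2 CPM in CD45.2+ and 1.78 to 4.36 CPM in CD45.1+ PC/PB cells of the wild-type mice. T cells of the same library were taken as a comparison for free RNA. Members that T cells make themselves, such as Cd81, and T cells captured together with a B cell were not told apart from it. In the CD45.2+ library the 65 T cells together held 141 CPM of Cd22 (95% Poisson interval 98.4 to 196), 137 CPM of Siglecg (95 to 192), 129 CPM of Cd72 (88.3 to 182), 52.5 CPM of Fcmr (27.9 to 89.7) and 28.3 CPM of Cr2 (11.4 to 58.2). The PC/PB cells held 70.2, 70.2, 46.4, 34.1 and 12.1 CPM of these genes. All 5 were thus below the T cell level, Fcmr and Cr2 within its interval. With immunoglobulin UMIs left out of the total, the means over 3 mice were 109, 111, 73.7, 52.7 and 19.1 CPM in PC/PB cells. In T cells they were 148, 151, 138, 67.1 and 34.0 CPM. These levels alone do not tell expression in CD45.2+ PC/PB cells from free RNA. Per cell the order was not the same for Cd22, with 913 UMIs in 1463 PC/PB cells and 35 UMIs in 65 T cells. This also held for Siglecg (913 and 34 UMIs) and Fcmr (443 and 13 UMIs). Cd72 (604 and 32 UMIs) stayed below the T cells per cell, and Cr2 (158 and 7 UMIs) was about equal. PC/PB cells held more UMIs in all. The part of free RNA in the difference between the sorts was not tested. Cd81 (328 against 56.5 CPM) and Cd79a (2581 against 969 CPM) were well above the T cells, Cd79b was 825 against 650 CPM, and Fcgr2b, at 60.7 CPM, lay within the T cell interval of 22.2 to 79.4 CPM.

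In the CD45.1+ library the 44 T cells held 48.2 CPM of Cd79a and 75.8 CPM of Cd79b, and the PC/PB cells 857 and 513 CPM. Cd22 was 20.7 CPM in T cells (4.26 to 60.4) and 3.83 CPM in PC/PB cells, Cd72 55.1 and 4.10 CPM, Fcmr 34.4 and 3.69 CPM, and Cr2 20.7 and 1.78 CPM. These 4 genes were thus below the T cell level in both libraries, but Fcmr and Cr2 lay within its interval in the CD45.2+ library. Their T cell levels in the CD45.1+ library rest on only 3, 8, 5 and 3 UMIs. Siglecg and Fcgr2b, at 11.3 and 34.2 CPM in PC/PB cells, lay within the T cell interval of 0.174 to 38.4 CPM. The T cell levels themselves were higher in the CD45.2+ library for all 9 members, but for Cr2, Cd81, Cd72, Fcgr2b and Fcmr the intervals of the libraries overlapped. Intervals cover counting error only.

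**Figure D3:**
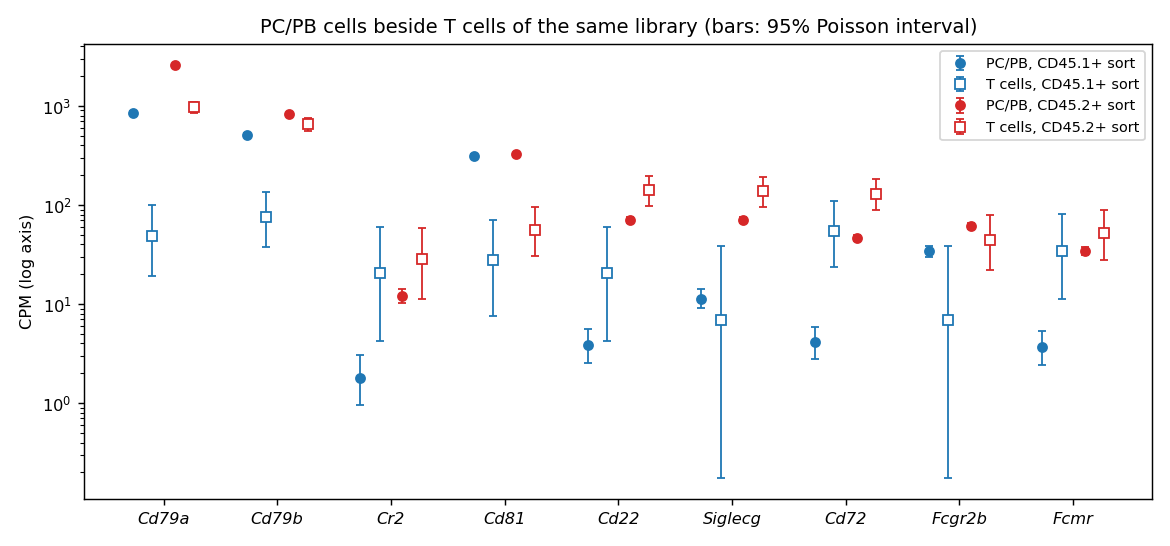
CPM of each member (y axis, log axis) summed over the PC/PB cells (filled circles) and the T cells (open squares) of the CD45.1+ (blue) and CD45.2+ (red) libraries, with 95% Poisson intervals. Cd22, Siglecg, Cd72, Fcmr and Cr2 of CD45.2+ PC/PB cells lie below the T cells of their library, and Cd79a and Cd81 lie above.

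With each cell thinned to 2000 UMIs, Cd22 was seen in 13.0% of 1458 CD45.2+ PC/PB cells (95% exact binomial interval 11.3 to 14.8) and in 22.2% of 54 T cells (12 to 35.6), and in 0.724% of 691 CD45.1+ PC/PB cells and 2.5% of 40 T cells. Before thinning the shares were 37.5%, 36.9%, 3.45% and 6.82%, at medians of 8177, 3279, 10031 and 2799 UMIs. Thinning left out 5, 11, 5 and 4 shallower cells. Cd79a was seen in 88.5% and 59.0% of the thinned PC/PB cells of the CD45.2+ and CD45.1+ sorts and in 64.8% and 5% of their T cells.

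The genotype comparison asked whether DOCK8-deficient BCL2.Tg cells differed from wild-type BCL2.Tg cells. Only E/A/M and DZ had at least 10 cells in all 6 mice. In E/A/M cells 1 of 9 members, Fcmr, was higher in the DOCK8-deficient group, where 0.467% of 8778 genes were called, and in DZ cells no member passed, where 0.045% of 8886 genes were called (none at an unadjusted p below 0.05, and none by DESeq2). The sums of the DOCK8-deficient mice rest on 19, 17 and 47 E/A/M cells and 14, 11 and 22 DZ cells. On simulated counts of the E/A/M comparison 32% of genes changed 2-fold and 78% of genes changed 4-fold were called. DZ cells were not simulated.

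In E/A/M cells Fcmr was 324, 330 and 233 CPM in DOCK8-deficient mice 1 to 3 and 126, 164 and 74.3 CPM in wild-type mice 1 to 3, with no overlap (log2 fold change 1.01, SE 0.22, adjusted p = 0.030, edgeR). The call was lost without any one of the DOCK8-deficient mice (adjusted p = 0.20 to 0.22) and under other hashtag rules (0.61 and adjusted p = 0.18 with a 3-fold rule, 0.69 and adjusted p = 0.13 with hashtags normalized over each cell). The share of early GC 1 cells in E/A/M moved with it, at 78.9%, 64.7% and 66.0% in the DOCK8-deficient and 39.8%, 43.7% and 16.0% in the wild-type mice. Within early GC 1 alone Fcmr was 302, 463 and 290 CPM against 215, 275 and 172 CPM, still without overlap but not called (0.41, SE 0.19, adjusted p = 0.53, edgeR).

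The other members did not pass in E/A/M cells. Fcgr2b had the next smallest p, at 140, 188 and 126 CPM in DOCK8-deficient and 159, 180 and 223 CPM in wild-type cells (-0.58, SE 0.21, adjusted p = 0.35). Of the wider lists, Ighd rose by 0.61 (adjusted p = 0.048) and Igkc fell by 0.54 (adjusted p = 0.016) among 23 membrane partners tested, and none of 26 activating and none of 18 inhibitory signalling genes was called in either class. Ebf1 fell by 0.67 in DZ cells (adjusted p = 0.014) and the chemokine receptor gene Cxcr4 rose by 1.49 in E/A/M cells (adjusted p = 0.047).

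**Figure D4:**
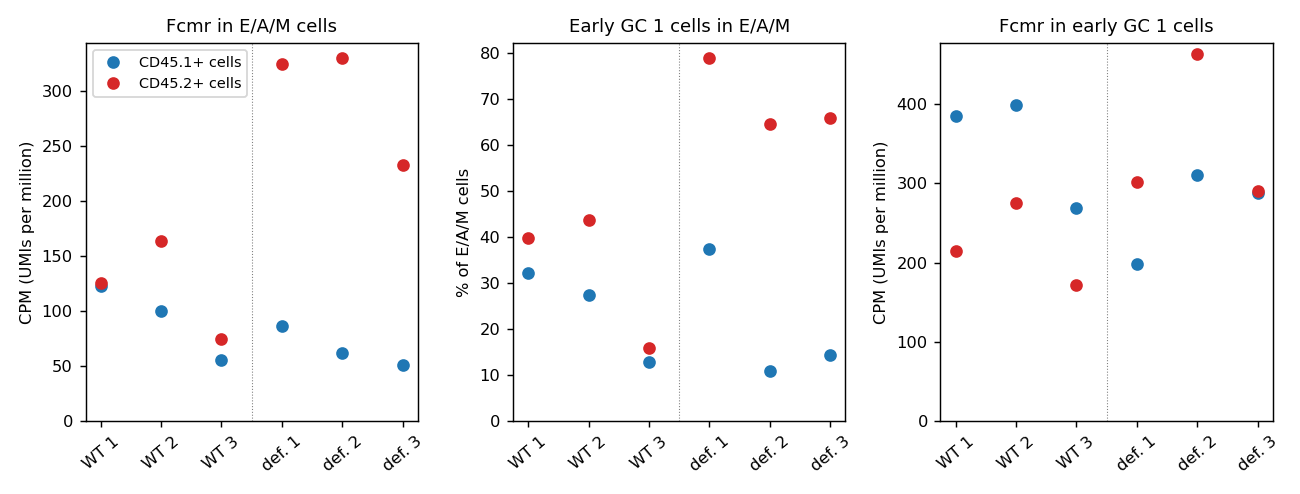
Fcmr level in E/A/M cells (left, CPM), share of early GC 1 cells in E/A/M (middle, %), and Fcmr level within early GC 1 (right, CPM) for each mouse of the wild-type (WT) and DOCK8-deficient (def.) groups, blue for CD45.1+ and red for CD45.2+ cells. The red points of the DOCK8-deficient mice lie above those of the wild-type mice in all 3 panels, and the gap in Fcmr is smaller in the right panel.

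The CD45.1+ cells, Dock8 wt/wt in both groups, served as the background of this comparison. None of the members tested passed between the groups, neither of the 9 in E/A/M, LZ and DZ cells nor of the 5 in PC/PB cells, where 0, 0.0158, 0.0887 and 0.0208% of genes were called. At an unadjusted p below 0.05 there were 1 member in E/A/M, 1 in LZ, 3 in DZ and 0 in PC/PB cells, and DESeq2 called none. In E/A/M cells the CD45.1+ cells held 123, 100 and 55.9 CPM of Fcmr in wild-type and 86.6, 62.4 and 50.7 CPM in DOCK8-deficient recipients, so the groups overlapped and lay in the other order.

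The difference between the sorts was tested against group in 1 model. In E/A/M cells the CD45.2+ minus CD45.1+ difference of Fcmr was larger in the DOCK8-deficient group by 1.62 on the log2 scale (SE 0.25, adjusted p = 7.1e-05, edgeR), where 1.24% of 5800 genes were called. Without the mouse as a block the difference was 1.40 and was not called (adjusted p = 0.47, edgeR). With the block Fcmr was the only member to pass of 9, with 3 at an unadjusted p below 0.05. In DZ cells no member passed, where 0.0131% of 7638 genes were called (none at an unadjusted p below 0.05, and none by DESeq2). CD45.2+ LZ cells could not be tested with all 6 mice, as DOCK8-deficient mouse 2 had 8 cells. Fcmr was 316 and 335 CPM in DOCK8-deficient mice 1 and 3, with 21 and 18 cells, against 160, 236 and 97.4 CPM in the wild-type mice, and without mouse 2 it was not called (0.81, adjusted p = 0.44, edgeR). With the 3-fold hashtag rule, which keeps more cells, it was 292, 182 and 182 CPM against 169, 239 and 108 CPM, so the groups overlapped, and no member was called (Fcmr 0.29, adjusted p = 0.78, edgeR).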

How the data were processed

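The sorts of MD4 B cells, CD45.1+ and CD45.2+, were each measured as 1 mRNA and 1 hashtag library (10x Genomics 3′ v3.1). The deposited files hold raw UMI counts per gene or hashtag and barcode, which the authors made with CellRanger 5.0.1 on mm10 (GRCm38). Later steps of the authors are not in these counts.

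Barcodes found in both the mRNA and the hashtag library were assigned to mice with HTODemux (Seurat 5.3.0, quantile 0.99), and cells with under 10% mitochondrial UMIs and 100 to 5500 genes were kept. Scrublet called 4 of 6488 and 5 of 3204 cells, which is too few to have worked, so doublets were treated only in an alternative that removed the highest scores. Cells were clustered on SCTransform values (sctransform 0.4.2, 3000 variable genes, 30 components, resolution 0.9) without the 9 genes, and clusters were named from at least 3 markers of the study's lists. The names are rebuilt and may differ from the study's own. Counts were then summed per mouse, sort and class with at least 10 cells. The mouse was the replicate, and a hashtag marks the same mouse in both sorts, so the sort comparison and the difference of the sort difference had the mouse as a block. In the wild-type mice the deviations of same-mouse sums correlated by 0.04 to 0.31. Tests used edgeR 4.0.16 (quasi-likelihood, TMM, filterByExpr, Benjamini-Hochberg adjustment over all genes tested, threshold 0.05), with DESeq2 1.42.0 as an alternative. A state was compared with another by levels only.

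On simulated counts with known changes, the sort comparison in LZ cells (7303 genes) recovered 64% of genes changed 2-fold and 91% of genes changed 4-fold, and the genotype comparison in E/A/M cells (8778 genes) 32% and 78%. The total was 49786988 UMIs in CD45.2+ and 20505380 in CD45.1+ cells kept. Alternatives covered the normalization, the filter on low counts, the block, the hashtag rule, cell filters, doublet scores, the minimum of cells and leaving out each mouse. Named genes were the 9 members, Dock8, and from each list up to 3 called genes of largest change per comparison and class. Members and lists were chosen with earlier results of these data known.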

Additional observations from a re-analysis of the deposited data

Results flagged for a closer look

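The sort difference of Fcmr in E/A/M cells differed between recipient groups by 1.62 on the log2 scale, by a test of that difference with the mouse as a block, and by 1.40, not called, without the block. It moved with the share of early GC 1 cells in the CD45.2+ sort, whose part in it was not tested.

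In several members the CD45.2+ minus CD45.1+ difference had opposite signs in PC/PB cells and in another class in all 3 wild-type mice, a difference between classes that was itself not tested. PC/PB cells were higher in every case. For Cr2 the mean log2 difference was -0.46 in LZ and -0.91 in DZ cells against 2.08 in PC/PB cells. For Cd79b it was -0.19 in LZ and -0.14 in DZ cells against 0.62 in PC/PB cells. Fcmr was at -0.53, Siglecg at -0.32 and Cd72 at -0.26 in LZ cells, against 2.41, 2.40 and 3.20 in PC/PB cells. Fcgr2b was at -0.28 in DZ and -0.14 in E/A/M cells against 0.74 in PC/PB cells. In CPM, the PC/PB levels of Cr2, Fcmr, Siglecg and Cd72 in the CD45.2+ sort lay below the T cells of the same library. Those of Cr2 and Fcmr were within the T cell interval. In UMIs per cell, Siglecg and Fcmr lay above the T cells.

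Cd22 in the low-RNA cluster, which entered no comparison, was 1065 CPM on average in the CD45.2+ sort, above its LZ levels.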

How the results depend on the processing

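The number of members called in the sort comparison was 11 over the 4 classes and lay between 8 and 14 under the alternatives, from 9 to 12 with 1 mouse left out. It was 8 without the mouse as a block and 8 with DESeq2. The state levels kept 8 members higher in LZ than in DZ cells in every CD45.1+ mouse in all 15 settings. The genotype comparison called 1 member, and 0 with the 3-fold hashtag rule, with that rule and without cells whose sex-linked UMIs go against their hashtag group, and with hashtags normalized over each cell. With 1 mouse left out it called 0 to 1. The partner comparison called 0, and 1 with no filter on low counts and 0 to 1 with 1 mouse left out. The difference of the sort difference called 1 member, Fcmr, and 0 without the replicate block (1.40, adjusted p = 0.47, edgeR). Without the block Cd79a in PC/PB cells (adjusted p = 0.13) and Cr2 and Fcmr in LZ cells (adjusted p = 0.18 and 0.36) also lost their call. Cr2 in LZ cells passed in 10 of 17 settings and Fcmr in 12 of 17, while Cr2 in DZ cells and Cd22, Cd72 and Siglecg in PC/PB cells passed in 18 of 18. No result reversed. The causes were not tested. A minimum of 20 cells left no class for the genotype comparison or the difference of the sort difference. The DOCK8-deficient CD45.2+ cells numbered 44 to 101 per mouse with the main hashtag rule, which limits what the genotype comparison can show. They numbered 145 to 468 with hashtags normalized over each cell and 160 to 481 with the 3-fold hashtag rule.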
